A study of Mus musculus with 55 samples.

Results

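Liver sinusoidal endothelial cells (LSEC) line the capillaries of the liver, and their transcript levels after partial hepatectomy (PH, surgical removal of part of the liver) were compared here with those in normal liver. The groups are the 5 libraries titled PH LSEC and the 3 titled Norm LSEC, 8 of the 55 libraries of the series, taken by title, and every gene of the table was considered. All came from livers of C57B/L6 mice with no transgene or deletion named, and the cells were sorted by FACS before their RNA was taken up with TRIzol and sequenced. The normal group had no stated operation, so surgery itself (anaesthesia, opening of the abdomen) and the loss of liver tissue cannot be told apart. The time after surgery, the age, sex and number of animals and the sorting markers are not given in the sources used here. Nothing says that libraries of a group came from separate animals, so p-values measure the spread between these libraries, which may in part be technical.

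LSEC have open pores and no continuous basement membrane, take up waste molecules from blood through scavenger receptors, and secrete factors that act on neighbouring hepatocytes. Endothelium near the central vein makes the ligands Wnt2 and Wnt9b and the Wnt amplifier Rspo3, which maintain the pericentral gene programme of hepatocytes, whereas endothelium near the portal vein has stronger Notch and ephrin signalling. After loss of liver tissue hepatocytes enter the cell cycle first, and endothelial cells are known to follow later.

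The values are FPKM (fragments per kilobase of transcript, scaled to the total of the library), so the number of reads behind each value is unknown. The sum over all transcript rows ran from 624726 to 737471 FPKM in the 8 libraries. Correlations of log2(FPKM + 1) over the genes tested were 0.909 to 0.950 among normal libraries, 0.916 to 0.979 among PH libraries and 0.861 to 0.922 between the groups. Values are printed below in the order of normal libraries 1 to 3 and then PH libraries 1 to 5. General endothelial markers, 12 in all, summed to 5999 to 7303 FPKM in normal and 5515 to 6242 FPKM in PH libraries. Among them Pecam1, the adhesion molecule CD31, read 614, 583 and 715 against 811, 648, 630.3, 1011 and 743 FPKM, and the cadherin Cdh5 differed by -0.099 ± 0.18 (SE) on the log2 scale (adjusted p = 0.770). Of 12 hepatocyte markers, 7 (Alb, Apoa1, Apoa2, Ttr, Serpina1a, Fgb and Cps1) were listed at exactly 0 in all 8 libraries. Of the 102 genes with a mean of 1000 FPKM or more in a sorted hepatocyte group, 58.0% of the LSEC values were listed at 0, against 3.09% for the 2615 genes with 10 to 30 FPKM there. A listed 0 may therefore not be a true absence. Hepatocyte levels are given beside some of the genes that hepatocytes express strongly, and a gene printed without one may be expressed there too.

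Transcripts of other cells were found at levels that differed between libraries. Summed over 13 Kupffer cell markers, normal libraries 1 to 3 read 337, 139 and 18.9 FPKM and PH libraries 177, 212, 166, 101 and 151 FPKM, against 28637 FPKM in sorted normal Kupffer cells. The Kupffer receptor Clec4f read 44.3, 14.3 and 1.71 FPKM in the normal libraries and 2.15, 0.356, 0.522, 0.826 and 0.473 FPKM after PH. In that list the complement gene C1qb rose (58.4, 26.8 and 3.83 against 131, 181, 131, 82.9 and 121 FPKM; adjusted p = 0.0438), and Vsig4 (-2.30, adjusted p = 0.0277) and Folr2 (-1.44, 0.0345) fell. C1qb made up most of the Kupffer sum in each PH library. Of the 9 Kupffer markers tested, 6 had changes below 0 and 3 above, with a median of -1.44. Summed over 9 markers of large-vessel endothelium, among them Vwf, Ednrb and Ly6a, the normal libraries read 1279, 272 and 2204 FPKM and the PH libraries 1899, 4322, 1584, 2998 and 1579 FPKM. The sorted normal cells titled EC held 4701 FPKM. Normal library 2 was thus lowest in large-vessel transcripts and PH library 2 highest, where their sum passed its own sinusoidal sum of 4019 FPKM. In that list 0 of 9 members rose by limma (3 at an unadjusted p under 0.05) and Efnb2 fell. Mesothelial and fibroblast markers summed to 10.0 to 217 FPKM and 164 to 591 FPKM, and the fibroblast gene Pi16 rose (adjusted p = 0.0257). Stellate markers summed to 173 to 258 and 248 to 583 FPKM, duct markers to 19.2 to 174 and 10.4 to 101 FPKM, and dendritic markers to 106 to 111 and 54.3 to 114 FPKM. Lymphocyte markers reached 36.2 FPKM and neutrophil markers 46.0 FPKM at most, both in normal library 2, and the neutrophil genes Camp, Elane and Mpo were listed at 0 in all 8. Haemoglobin transcripts marked normal library 1, where Hbb-b1 read 263 FPKM, against 0 in the other normal libraries, and the platelet integrin Itga2b rose (log2 change of 1.59 ± 0.27, adjusted p = 0.00853). The hepatocyte markers that passed the filter on low values were Trf and Ass1, and both rose. Both passed it through their PH values, so the direction of their changes was largely set by the filter. Trf, transferrin, was listed at 0 in the 3 normal LSEC libraries and read 11.5, 11.3, 19.2, 4.84 and 10.9 FPKM after PH (adjusted p = 0.00123), and hepatocytes held 12561 FPKM in normal and 11203 after PH. Ass1, of the urea cycle, read 0, 2.49 and 0 against 9.96, 8.997, 4.79, 14.7 and 8.39 FPKM (log2 change of 2.70 ± 0.45, adjusted p = 0.00770), and hepatocytes held 985 FPKM in normal and 289 after PH. The part of hepatocyte RNA in both rises was not tested. In bulk sorted samples a change in the share of a cell type and a change of RNA per cell cannot be told apart. By limma, calls lost on leaving out the library in brackets were those of C1qb (normal 2 or PH 1, 2, 3, 4 or 5, adjusted p up to 0.0954), Vsig4 (normal 1 or 2 or PH 1 or 5, adjusted p up to 0.0905), Folr2 (normal 1 or 2 or PH 1 or 4, adjusted p up to 0.146) and Pi16 (normal 1 or 2 or PH 1 or 3, adjusted p up to 0.0925).

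**Figure D1:**
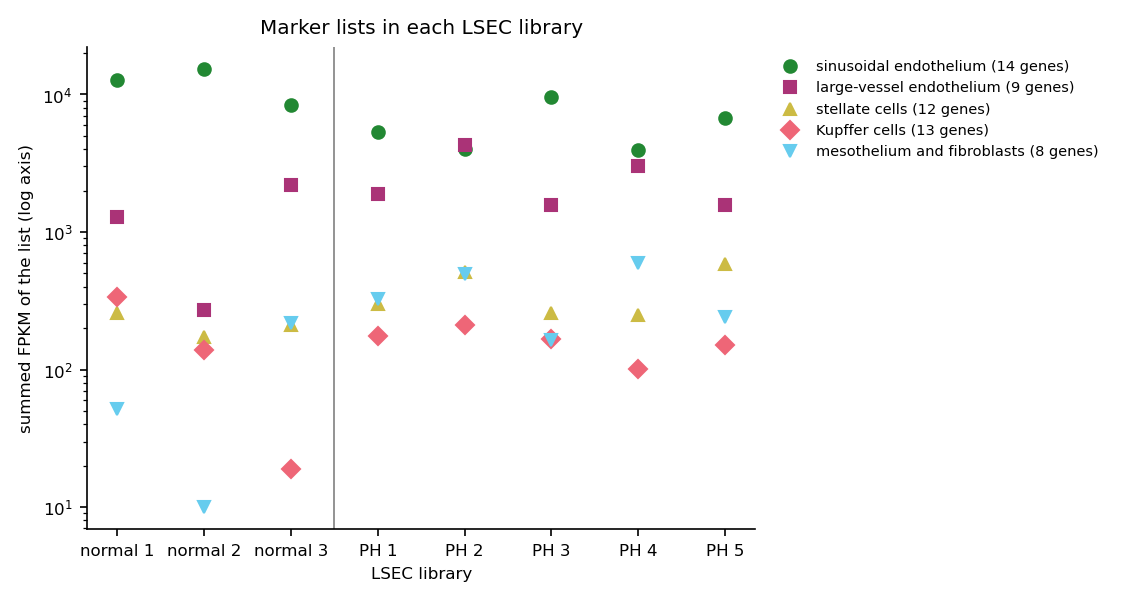
Summed FPKM of 5 marker lists (log axis) in each of the 3 normal and 5 PH LSEC libraries, 1 point per list and library. Sinusoidal markers lie between 3965 and 15336 FPKM, and the Kupffer list is lowest in normal library 3 (18.9 FPKM).

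In the comparison of LSEC after PH with normal LSEC, 973 of 11501 genes were called at an adjusted p under 0.05 (8.46%), 477 higher (4.15%) and 496 lower (4.31%) after PH. The median change over all genes tested was -0.03 on the log2 scale. Of the called genes, 571 changed by at least 1 on the log2 scale with no overlap between the 8 libraries, 273 upwards and 298 downwards. Groups did not overlap for 18.8% of all genes tested and for 962 of the 973 called, so a lack of overlap adds little to a call. The count rested on which libraries were used: it was 277 without normal library 1, 428 without normal library 2, 499 without PH library 1, 606 without PH library 4 and 640 without PH library 5. In 228 genes the call was kept in each of the 8 fits that left out 1 library, and in 0 called genes did the sign of the change turn in such a fit. Of the called genes 314 had 10 FPKM or more in a hepatocyte group, and limited to the 7233 genes below that level 682 were called, 289 of them higher.

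**Figure D2:**
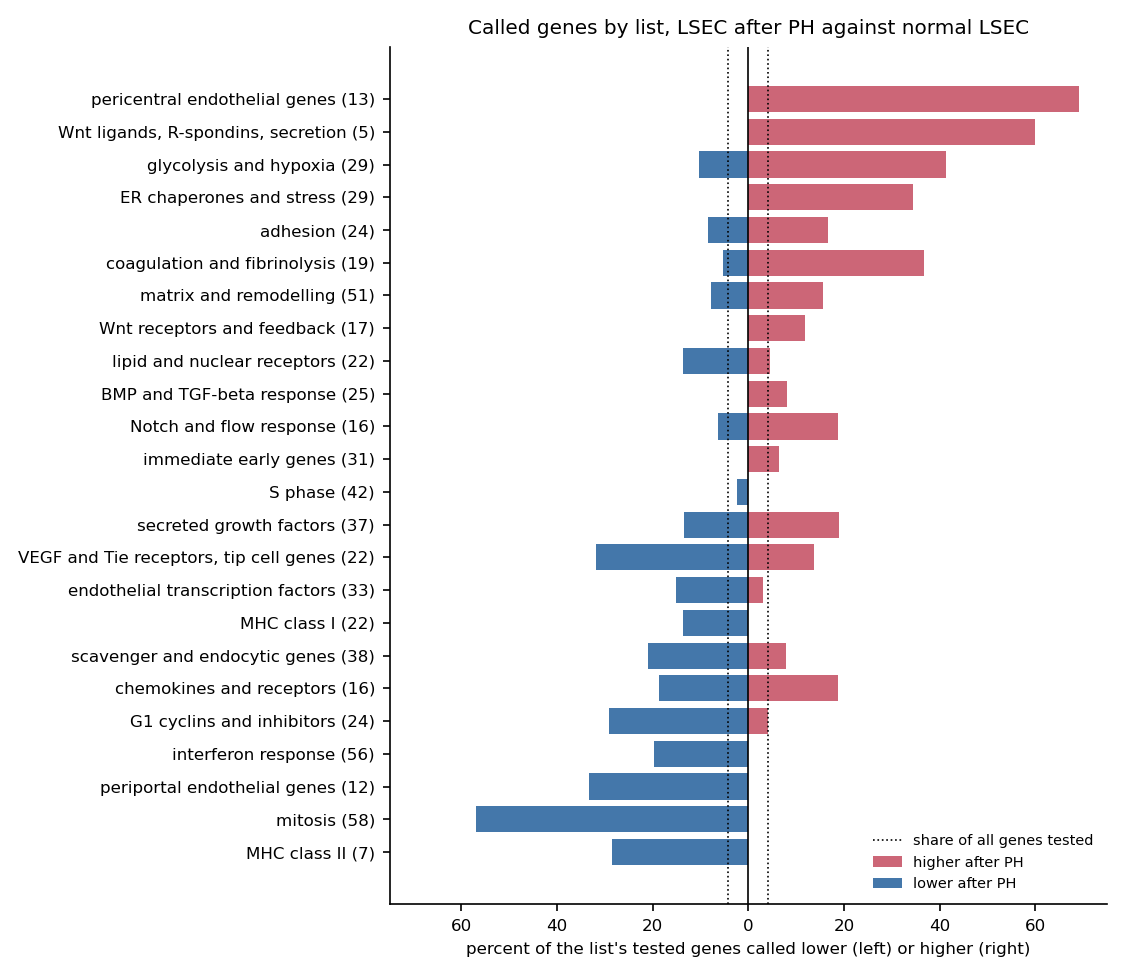
Percent of the tested genes of each of 24 lists called lower (left) or higher (right) in LSEC after PH, ordered by the list's median change, with the number tested in brackets. Dotted lines mark the shares of all genes tested, 4.31% lower and 4.15% higher; pericentral genes reach 69.2% higher and mitosis genes 56.9% lower.

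Most of the listed transcripts of pericentral endothelium rose. Of 13 genes listed as enriched near the central vein, 9 rose and 0 fell by limma (0 at an unadjusted p under 0.05), with a median change of 2.26. Without normal library 1 the count was 5. Wnt9b (chr11:103588677-103611135 in mm9, as are all spans of transcripts below), the Wnt ligand with the largest change, read 39.5, 12.98 and 65.8 FPKM in normal libraries 1 to 3 and 482, 430.3, 309, 711 and 561 FPKM in PH libraries 1 to 5. The PH mean was 12.6-fold higher (log2 change of 3.84 ± 0.45, adjusted p = 0.00226). Wnt2 (chr6:17938940-17980445) read 144, 243 and 203 FPKM against 494, 488, 408, 644 and 512 FPKM, a 2.59-fold higher mean (log2 change of 1.38 ± 0.22, adjusted p = 0.00594). Both ligands stood apart in every library, and both calls held whichever library was left out. Wnt2 missed the threshold in a single fit of all 20 groups of the series (adjusted p = 0.118). Rspo3 (chr10:29172913-29255673), whose product strengthens Wnt signalling by protecting the receptors, read 189.6, 27.0 and 192 FPKM against 865, 1084, 352, 1406 and 810.0 FPKM (log2 change of 3.03 ± 0.67, adjusted p = 0.0277). The call of Rspo3 was lost without normal library 1 or PH library 1, 2, 4 or 5 (adjusted p up to 0.0680), and with no filter on low values (adjusted p = 0.0594). Normal library 2, also the lowest in large-vessel transcripts, held the lowest Rspo3.

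Of the 25 genes for Wnt ligands, R-spondins and their secretion, 5 passed the filter on low values, and the 3 that rose were Wnt2, Wnt9b and Rspo3. Wls, which carries Wnt proteins to the surface, read 103, 96.9 and 97.7 FPKM against 96.3, 92.2, 103, 122 and 105 FPKM. Porcn, which attaches their lipid, read 8.18, 4.86 and 4.38 against 5.59, 5.55, 4.61, 3.93 and 5.70 FPKM, and both missed the threshold (adjusted p = 0.842 and 0.757). Among the Wnt receptor and feedback genes 2 of 17 rose and 0 fell by limma (2 at an unadjusted p under 0.05), with a median of -0.05. The called share was 11.8%, against 8.46% of all genes tested. Axin2, a direct target and inhibitor of Wnt signalling, read 0.940, 1.10 and 1.27 FPKM in normal and 4.75, 5.01, 4.80, 4.10 and 4.76 FPKM in PH libraries (log2 change of 1.44 ± 0.18, adjusted p = 0.00278). Every PH library lay above every normal library, and the PH values spread little. Apcdd1, a membrane inhibitor of Wnt, read 0.686, 0.120 and 3.21 against 7.75, 10.6, 10.1, 5.58 and 10.6 FPKM (log2 change of 2.28 ± 0.39, adjusted p = 0.00950). The call of Apcdd1 was lost without normal library 1 (adjusted p = 0.0519).

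The other pericentral genes that rose code for surface, trafficking and regulatory proteins. Thbd (chr2:148230207-148233924), thrombomodulin, which turns thrombin towards anticoagulation, read 124, 107 and 315 FPKM in normal and 2203, 1529, 1476, 2247 and 1841 FPKM in PH libraries. Every PH library lay above every normal library (log2 change of 3.495 ± 0.34, adjusted p = 0.00123). Lhx6, a LIM homeobox transcription factor, read 42.4, 34.8 and 58.5 against 215, 357, 142, 369 and 269 FPKM (log2 change of 2.503 ± 0.31, adjusted p = 0.00247). Rab3b, a small GTPase of vesicle release, read 11.1, 16.7 and 4.72 against 89.4, 47.8, 86.9, 28.5 and 72.3 FPKM (log2 change of 2.51 ± 0.44, adjusted p = 0.0116). The receptor for stem cell factor, Kit, changed by 1.25 ± 0.21 (adjusted p = 0.00898), cyclooxygenase 1, Ptgs1, by 1.17 ± 0.20 (adjusted p = 0.00873), and the receptor partner Ramp3 by 2.26 ± 0.54 (adjusted p = 0.0347). Without normal library 1 the adjusted p was 0.0534 for Kit and 0.0544 for Ptgs1, and Ramp3 was called only in the fits that left out normal library 3 or PH library 3 (highest adjusted p = 0.124). The 4 members that did not pass were Selp (2.57, adjusted p = 0.0514), Fabp4 (1.23, 0.0721), Cdh13 (0.77, 0.0586) and Lfng (0.06, 0.871). Among large-vessel transcripts Vwf read 54.3, 0.311 and 272 against 243, 355, 161, 559.8 and 254 FPKM (adjusted p = 0.171). Ednrb read 83.4, 1.39 and 220.4 against 452, 585, 287, 709.8 and 319 FPKM (adjusted p = 0.102). Both were lowest in normal library 2, and their part in the rise of the pericentral genes was not tested.

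Periportal endothelial transcripts went the other way in part. Of 12 tested, 4 fell and 0 rose by limma (0 at an unadjusted p under 0.05), with a median change of -1.04. The count was 1 without normal library 1 and 2 without normal library 3, PH library 1 or PH library 5. Dll4 (chr2:119151520-119161402), the Notch ligand of arterial and tip endothelium, read 164, 77.9 and 123 FPKM in normal and 6.52, 24.4, 23.2, 3.05 and 11.6 FPKM in PH libraries. No PH library reached the lowest normal one (log2 change of -3.30 ± 0.59, adjusted p = 0.0124, and 0.0578 without normal library 1). Ltbp4, which binds latent TGF-beta in the matrix, read 807, 463 and 459.8 against 69.6, 146, 127, 63.3 and 118 FPKM (log2 change of -2.47 ± 0.32, adjusted p = 0.00280). Efnb2, the ephrin of arterial endothelium, read 78.0, 26.8 and 58.4 against 9.69, 25.6, 18.7, 5.26 and 9.07 FPKM (log2 change of -1.98 ± 0.49, adjusted p = 0.0404), and normal library 2 lay close to PH library 2. The scavenger receptor Msr1 changed by -2.35 ± 0.58 (adjusted p = 0.0394). Jag1, Cd34 and Efnb1 had changes above 0 (0.71, 0.61 and 0.18), with adjusted p of 0.656, 0.729 and 0.835. Without the library in brackets, limma's call was lost for Efnb2 (normal 1 or 3 or PH 1, 4 or 5, adjusted p up to 0.143) and Msr1 (normal 1, 2 or 3 or PH 1, 2 or 5, adjusted p up to 0.137).

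**Figure D3:**
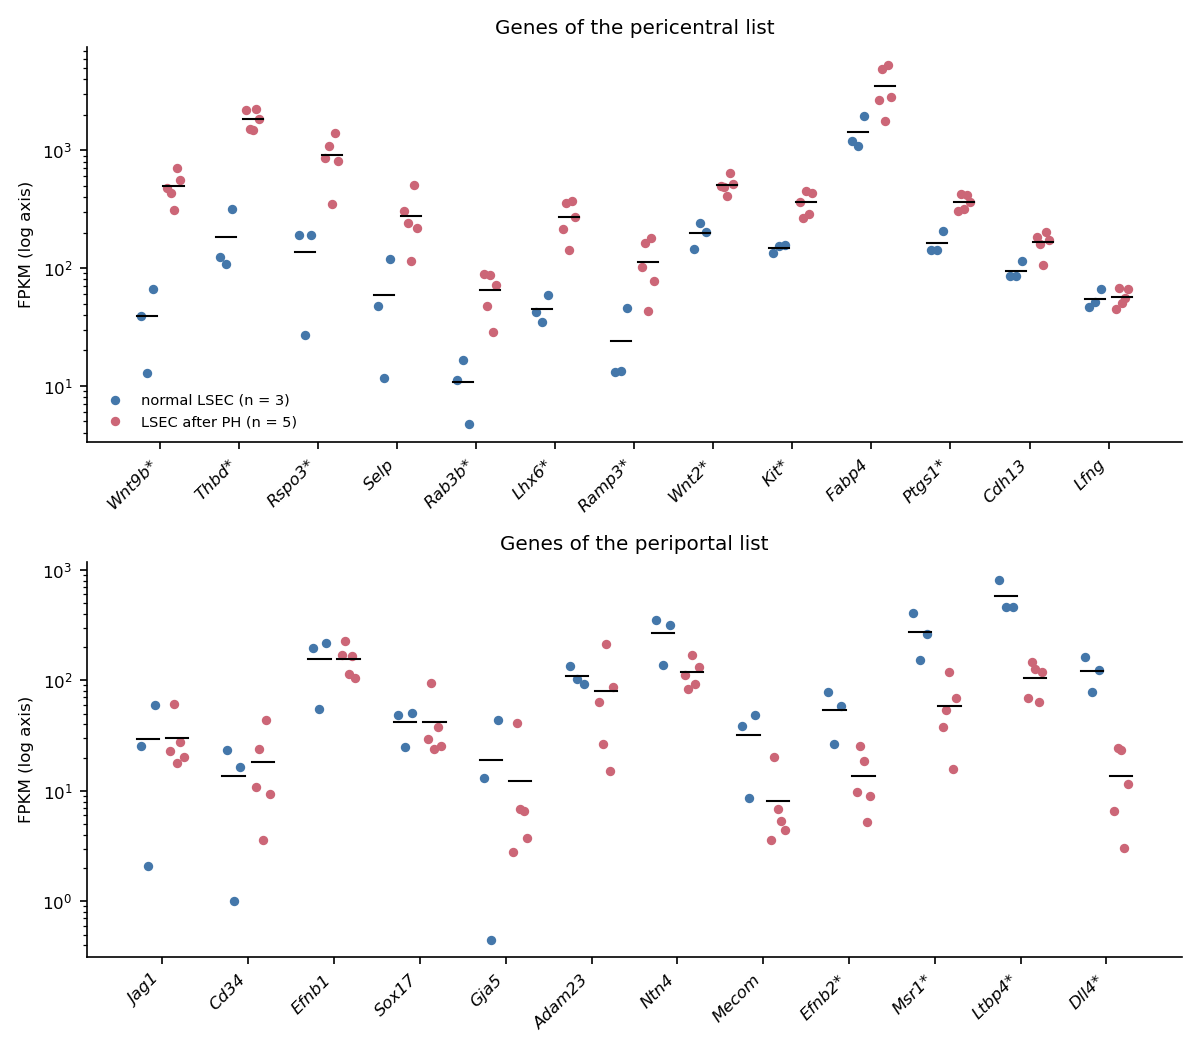
FPKM (log axis) of the 13 pericentral (top) and 12 periportal (bottom) endothelial genes, 1 point per library, with a bar at each group mean; an asterisk marks genes called by limma. For Wnt9b, Thbd, Lhx6 and Wnt2 every PH library lies above every normal library, and for Dll4 and Ltbp4 every PH library lies below.

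Of the 5 markers of the population, Wnt2 and Wnt9b rose as above and Clec4g fell. Clec4g (chr8:3716071-3720651), a C-type lectin of sinusoidal endothelium, read 3791, 4053 and 2390.0 FPKM in normal and 900.2, 839, 1919, 551 and 1311 FPKM in PH libraries (log2 change of -1.72 ± 0.38, adjusted p = 0.0222). The call was lost without normal library 1 or 2 or PH library 1 (adjusted p up to 0.0972), as well as in the single fit of 20 groups (adjusted p = 0.256). It was also lost with quantile scaling (adjusted p = 0.069) and with no filter on low values (0.0577). Stab2, the hyaluronan scavenger receptor, read 725, 1107 and 513 against 268, 111, 812, 71.7 and 469 FPKM. PH library 3 exceeded normal libraries 1 and 3, the groups overlapped and the difference did not pass (log2 change of -1.62 ± 0.73, adjusted p = 0.212). Lyve1, the related hyaluronan receptor, read 438, 580.3 and 353 against 319.8, 212, 339, 196 and 383 FPKM and did not pass either (log2 change of -0.68 ± 0.27, adjusted p = 0.151). All 5 markers were thus present in every library.

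Over the 14 sinusoidal markers 2 rose, 3 fell and 12 had changes below 0, with a median of -1.30. The falls were Clec4g, Dnase1l3, a secreted DNase (log2 change of -1.77 ± 0.43, adjusted p = 0.0339), and Oit3 (log2 change of -1.56 ± 0.41, adjusted p = 0.0441). The summed level of the 14 was 12720.3, 15336 and 8401 FPKM in normal libraries and 5313, 4019, 9583, 3965 and 6790.2 FPKM after PH, so PH library 3 lay among the normal libraries. The count of falls was 0 without normal library 1, normal library 2 or PH library 1, 1 without normal library 3 or PH library 4, and 6 without PH library 3. On the wider list of scavenger and endocytic genes 8 of 38 fell and 3 rose (median -0.40). The lectin Cd209b, whose counts may be shared with its close paralogs, read 11.6, 7.34 and 8.37 against 0.270, 0.511, 1.204, 0.0601 and 1.13 FPKM (log2 change of -2.66 ± 0.30, adjusted p = 0.00176). The fatty acid receptor Cd36 changed by -0.93 ± 0.21 (adjusted p = 0.0264). The rises were Plvap, the protein of endothelial pore diaphragms (log2 change of 1.41 ± 0.21, adjusted p = 0.00527), the lysosomal protease Ctsb (0.83, adjusted p = 0.0179) and the clathrin adaptor Ap2m1 (0.65, 0.0406). Falls on this list numbered 1 without normal library 1 or PH library 1, 2 without normal library 2 and 4 without normal library 3, PH library 4 or PH library 5, and rises numbered 1 without normal library 1 or 2 or PH library 1. Large-vessel markers, given above, were highest in PH libraries 2 and 4, the 2 with the lowest sinusoidal sums, and their part in these falls was not tested. Leaving out the library in brackets ended limma's calls of Dnase1l3 (normal 1, 2 or 3 or PH 1 or 4, adjusted p up to 0.124), Oit3 (normal 1, 2 or 3 or PH 1, 2, 4 or 5, adjusted p up to 0.152), Cd36 (normal 1 or 3 or PH 1 or 5, adjusted p up to 0.110) and Ctsb (normal 1 or 2 or PH 1, adjusted p up to 0.0843). The same held for Ap2m1 (normal 1 or 2 or PH 1, 3, 4 or 5, adjusted p up to 0.143). In the single fit of 20 groups Dnase1l3 (adjusted p = 0.106) and Cd36 (0.189) missed the threshold. Dnase1l3 also missed it with quantile scaling (adjusted p = 0.0575), upper-quartile scaling (0.0519) and no filter on low values (0.0836).

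Some endothelial transcription factor genes fell, as did Cldn5 and Robo4. Cldn5, the tight junction protein of endothelium, read 378, 423 and 377 FPKM in normal and 56.8, 80.9, 141, 34.1 and 99.8 FPKM in PH libraries (log2 change of -2.39 ± 0.38, adjusted p = 0.00659). Robo4, a guidance receptor that stabilises vessels, changed by -1.03 ± 0.17 (adjusted p = 0.00825, and 0.0516 without normal library 1). Of 33 endothelial transcription factors 5 fell, 1 (Lhx6) rose and the median was -0.31. Epas1, the hypoxia-inducible factor HIF-2alpha, read 328, 312 and 373 against 159, 146, 179, 130.4 and 173 FPKM (log2 change of -1.10 ± 0.16, adjusted p = 0.00491). Meis1 (-1.21, adjusted p = 0.0120), Erg (-0.76, 0.0474), Gata2 (-0.74, 0.0208) and Foxo1 (-0.52, 0.0493) also fell. The falls numbered 1 without normal library 1, 3 without normal library 2 or PH library 1 and 2 without PH library 5. Flow-responsive Klf2 (0.96, adjusted p = 0.0263) and Nos3, the endothelial nitric oxide synthase (1.14, 0.0134), rose with the Notch ligand Dll1, which read 18.4, 20.7 and 21.4 against 42.2, 48.6, 33.5, 43.2 and 35.7 FPKM (log2 change of 0.97 ± 0.16, adjusted p = 0.00685). They were the 3 rises among 16 Notch and flow genes, where Dll4 was the fall, and without normal library 1 or 2 the rises numbered 1. By limma, calls lost on leaving out the library in brackets were those of Meis1 (normal 1, adjusted p = 0.0614), Erg (normal 1, 2 or 3 or PH 1, 4 or 5, adjusted p up to 0.159), Gata2 (normal 1 or 2 or PH 5, adjusted p up to 0.0962) and Foxo1 (normal 1, 2 or 3 or PH 1, 3 or 5, adjusted p up to 0.173). The same held for Klf2 (normal 1, 2 or 3 or PH 1, adjusted p up to 0.103) and Nos3 (normal 1 or 2, adjusted p up to 0.0608). The single fit of 20 groups also ended those of Erg (adjusted p = 0.148) and Klf2 (0.175). With no filter on low values both missed the threshold (adjusted p = 0.0855 and 0.0519), and with quantile scaling Klf2 did (0.0675).

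Secreted growth factors changed in both directions. Of 37 tested 7 rose and 5 fell (median -0.22), 4 and 3 without normal library 1. Stc2, stanniocalcin 2, a secreted glycoprotein, read 0.197, 0 and 0.773 FPKM in normal and 19.3, 31.5, 8.56, 33.2 and 15.0 FPKM in PH libraries (log2 change of 3.98 ± 0.40, adjusted p = 0.00125). The alarmin Il33 read 29.7, 16.0 and 34.5 against 80.5, 87.2, 83.9, 110.0 and 89.9 FPKM (log2 change of 1.78 ± 0.23, adjusted p = 0.00284). Sema3f, a guidance factor of the semaphorins, read 177, 116 and 169 against 506, 521, 432, 482 and 510.0 FPKM (log2 change of 1.68 ± 0.18, adjusted p = 0.00143). Inhbb, the activin beta B subunit, read 42.2, 61.3 and 30.3 against 115, 129.8, 169.9, 115 and 131 FPKM (log2 change of 1.59 ± 0.23, adjusted p = 0.00443). For all 4 the groups stood apart. Tgfb2 read 2.11, 0.471 and 5.86 against 15.0, 25.1, 8.23, 31.9 and 27.3 FPKM (log2 change of 2.70 ± 0.54, adjusted p = 0.0178). The ligand apelin, Apln, changed by 1.83 ± 0.37 (adjusted p = 0.0154, 0.0631 without normal library 1). Angptl4, an inhibitor of lipoprotein lipase, read 0.364, 0.346 and 0 against 5.99, 2.15, 2.97, 0.896 and 2.58 FPKM (log2 change of 1.55 ± 0.38, adjusted p = 0.0335), while hepatocytes held 51.9 FPKM in normal and 72.5 after PH. Stc2 and Angptl4 passed the filter on low values only through their PH values, so the direction of their changes was largely set by the filter. Without the library in brackets, limma's call was lost for Tgfb2 (normal 1 or 2, adjusted p up to 0.0652) and Angptl4 (normal 1, 2 or 3 or PH 1 or 5, adjusted p up to 0.0916).

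The falls among secreted factors included ligands of sprouting and of iron control. Angpt2, the antagonist of the Tie2 receptor, read 18.1, 12.3 and 22.9 FPKM in normal and 1.73, 5.39, 1.56, 0.510 and 1.69 FPKM in PH libraries (log2 change of -2.69 ± 0.40, adjusted p = 0.00521). Esm1, a proteoglycan of tip cells, read 57.7, 7.70 and 17.4 against 1.99, 0.110, 1.03, 0.0400 and 0.521 FPKM (log2 change of -3.72 ± 0.57, adjusted p = 0.00585). Bmp6, through which endothelium drives hepcidin in hepatocytes, read 88.3, 117 and 58.5 against 19.3, 13.6, 24.4, 4.83 and 18.4 FPKM (log2 change of -2.48 ± 0.44, adjusted p = 0.0120, 0.0549 without normal library 1). Every PH library lay below every normal library for these 3. Pdgfd changed by -1.02 ± 0.15 (adjusted p = 0.00470) and Adm, adrenomedullin, by -1.94 ± 0.52 (adjusted p = 0.0493). Among 22 genes of VEGF and Tie receptors and tip cells 7 fell and 3 rose (median -0.28). Angpt2, Esm1, Dll4, Robo4 and Adm were among the falls, and the others were Nrp1, a VEGF co-receptor (-1.013, adjusted p = 0.0406), and the channel subunit Kcne3 (-1.68, 0.0171), and the falls numbered 2 without normal library 1 and 4 without normal library 2. Ackr3, a scavenging receptor of Cxcl12, rose from 17.2, 14.9 and 36.3 FPKM to 215, 153, 132, 205 and 165 FPKM (log2 change of 2.96 ± 0.28, adjusted p = 0.00123). Its rise with Apln and Plvap made up the 3, which became 5 without PH library 2. Kdr, the main VEGF receptor, read 958, 1275 and 630.1 against 433, 169.8, 646, 263 and 574 FPKM and did not pass (log2 change of -1.30 ± 0.43, adjusted p = 0.0954). Leaving out the library in brackets ended limma's calls of Adm (normal 1 or 2 or PH 1, 2, 3 or 5, adjusted p up to 0.168), Nrp1 (normal 1 or 2 or PH 1, 2, 4 or 5, adjusted p up to 0.152) and Kcne3 (normal 1 or 2, adjusted p up to 0.0786).

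Most mitotic transcripts fell after PH. Of 58 mitosis genes tested 33 fell and 0 rose by limma (0 at an unadjusted p under 0.05), with a median change of -1.28, and 54 had changes below 0. With 1 library left out the falls numbered 24 to 38. Mki67 (chr7:142881471-142908062), the proliferation antigen, read 4.61, 4.76 and 10.9 FPKM in normal and 0.424, 1.16, 0.565, 0.136 and 0.975 FPKM in PH libraries (log2 change of -2.18 ± 0.33, adjusted p = 0.00521). Top2a, which untangles replicated DNA, read 5.001, 5.83 and 7.79 against 0.515, 0.762, 0.461, 0.261 and 0.375 FPKM (log2 change of -2.28 ± 0.23, adjusted p = 0.00125). Ccnb2, a mitotic cyclin, read 8.73, 6.01 and 16.5 against 0.577, 1.496, 0.601, 0.158 and 1.14 FPKM (log2 change of -2.62 ± 0.35, adjusted p = 0.00294). Birc5, survivin of the chromosomal passenger complex, changed by -2.502 ± 0.29 (adjusted p = 0.00185) and Prc1, the spindle midzone protein, by -2.49 ± 0.42 (0.00864). No PH library reached a normal one in any of these 5, and normal library 3, the lowest of the 3 in Kupffer markers, was the highest in all of them. All 5 passed the filter on low values only through their normal values, so the direction of their changes was largely set by the filter. How many other members of the list did so was not counted. In the single fit of 20 groups Mki67 and Top2a missed the threshold (adjusted p = 0.0553 for Top2a). Sorted Kupffer cells held Mki67 at a mean of 10.6 FPKM in normal liver, and normal stellate cells at a mean of 9.75 FPKM. The normal stellate libraries lay far apart in other mitosis genes, with Top2a at 0.982 and 18.5 FPKM and Ccnb2 at 0.341 and 39.6 FPKM. In Kupffer cells mean Top2a was 10.1 FPKM in normal and 42.7 after PH, and mean Ccnb2 was 7.23 and 6.93 FPKM. The part of such cells in the LSEC values was not tested.

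Genes of earlier cell cycle steps passed the test mainly among G1 regulators. In the S phase list 1 of 42 fell, the ribonucleotide reductase subunit Rrm2 (log2 change of -1.44 ± 0.28, adjusted p = 0.0138, 0.0631 without normal library 1). Rrm2 passed the filter on low values only through its normal values, so the direction of its change was largely set by the filter. The count was 2 without normal library 3 or PH library 2. In that list 0 rose by limma (1 at an unadjusted p under 0.05), with a median of -0.21. Its called share was 2.38%, against 8.46% of all genes tested. Among 24 G1 cyclins and inhibitors 7 fell and 1 rose (median -0.50), the falls numbering 3 without normal library 1. Ccnd1, cyclin D1, which drives entry into the cycle, read 90.6, 195 and 78.1 FPKM in normal and 29.1, 23.1, 35.3, 29.8 and 49.0 FPKM in PH libraries (log2 change of -1.76 ± 0.31, adjusted p = 0.0106). The inhibitor p57, Cdkn1c, read 31.7, 18.4 and 34.1 against 4.01, 4.46, 8.44, 3.11 and 4.70 FPKM (log2 change of -2.30 ± 0.29, adjusted p = 0.00247), and Gadd45a, a stress-induced growth arrest gene, changed by -1.56 ± 0.24 (adjusted p = 0.00550). The inhibitor p21, Cdkn1a, was the rise, from 35.9, 36.5 and 26.0 FPKM to 124, 84.5, 64.4, 67.1 and 94.3 FPKM (log2 change of 1.35 ± 0.23, adjusted p = 0.00873). The groups of all 4 genes did not overlap. Of 31 immediate early genes Klf10 (log2 change of 1.196 ± 0.25, adjusted p = 0.0173) and Ier5 (log2 change of 0.79 ± 0.19, adjusted p = 0.0330) rose and 0 fell by limma (1 at an unadjusted p under 0.05). The called share of that list was 6.45%, below the 8.46% of all genes tested. The rises numbered 0 without normal library 1 or 3 and 1 without normal library 2, PH library 1 or PH library 5. By limma, calls lost on leaving out the library in brackets were those of Klf10 (normal 1 or 3, adjusted p up to 0.0776) and Ier5 (normal 1, 2 or 3 or PH 1, 4 or 5, adjusted p up to 0.0861). In the single fit of 20 groups limma's calls were lost for Rrm2 (adjusted p = 0.159), Cdkn1a (0.0744), Gadd45a (0.0503), Klf10 (0.108) and Ier5 (0.203).

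A short element stood in many promoters of the mitosis list. The letters TTTGAA, the cell cycle homology region, were searched on both strands in windows of 250 bases before to 50 after each start, taken from RefSeq on GRCm38.p6, a different build from that of the spans above. Of 61 mitosis genes with a window 43 held it (70.5%), as did 23 of the 27 called ones with a window, against 8 of 41 S phase genes (19.5%) and 20.2% of all 27025 genes. A match is a description of letters and not of binding. Here and for the elements below, the lists were chosen by function, and called members were not tested against the other members. Stretches of 80 bases upstream of the start are shown for the 4 called genes with the largest falls that hold the letters upstream, which are in capitals (TTCAAA where the match is on the other strand). They lie at chr9:70421686-70421765 on the minus strand for Ccnb2, chr7:80294396-80294475 on the plus strand for Prc1, chr11:99024190-99024269 on the minus strand for Top2a and chr7:135716442-135716521 on the minus strand for Mki67.
Ccnb2: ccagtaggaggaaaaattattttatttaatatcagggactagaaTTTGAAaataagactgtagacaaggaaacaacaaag
Prc1: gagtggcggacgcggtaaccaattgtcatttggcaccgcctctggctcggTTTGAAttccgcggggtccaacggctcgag
Top2a: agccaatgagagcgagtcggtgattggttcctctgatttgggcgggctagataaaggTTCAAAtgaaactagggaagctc
Mki67: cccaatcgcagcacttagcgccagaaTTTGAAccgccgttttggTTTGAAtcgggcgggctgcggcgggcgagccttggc

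Interferon response genes and genes of antigen presentation fell in part. Of 56 interferon response genes 11 fell and 0 rose by limma (0 at an unadjusted p under 0.05), with 50 changes below 0 and a median of -0.50. The count was 4 without normal library 1, 5 without normal library 3, and 6 without normal library 2, PH library 4 or PH library 5. Cxcl9 (chr5:92750357-92757105), the interferon-gamma induced chemokine for T cells, read 107, 87.3 and 26.7 FPKM in normal and 2.77, 0.660, 4.06, 0.810 and 2.09 FPKM in PH libraries. Even the lowest normal library held more than every PH library (log2 change of -4.51 ± 0.50, adjusted p = 0.00185). The GTPases Tgtp2 (12.1, 10.8 and 8.66 against 3.09, 1.31, 3.76, 1.70 and 1.76 FPKM; log2 change of -1.84 ± 0.27, adjusted p = 0.00470) and Iigp1 (log2 change of -1.59 ± 0.26, adjusted p = 0.00670) also fell, as did Gbp5, a guanylate binding protein (log2 change of -1.34 ± 0.18, adjusted p = 0.00296). Tgtp2 and the Gbp genes have near copies, so reads may be split between them, and hepatocytes held Iigp1 at 109 FPKM in normal and 101 after PH. The checkpoint ligand Cd274 changed by -1.44 ± 0.37 (adjusted p = 0.0395). Without the library in brackets, limma's call was lost for Cd274 (normal 1, 2 or 3 or PH 4 or 5, adjusted p up to 0.151). That of Iigp1 was lost in the single fit of 20 groups (adjusted p = 0.119).

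Class II antigen presentation, carried mainly by professional antigen-presenting cells, had 2 falls among 7 genes and 0 rises by limma (1 at an unadjusted p under 0.05), with a median of -2.33. H2-Aa, a class II chain, read 52.3, 41.9 and 5.95 FPKM in normal and 0.650, 0, 0, 0.590 and 1.201 FPKM in PH libraries (log2 change of -4.15 ± 0.61, adjusted p = 0.00527). Cd74, the invariant chain, read 92.2, 113 and 2.52 against 1.45, 1.96, 0.0851, 1.15 and 2.20 FPKM (log2 change of -3.91 ± 1.02, adjusted p = 0.0486). Its call was lost without normal library 1 or 2 or PH library 1, 2, 3, 4 or 5 (adjusted p up to 0.163), which left a count of 1 in each of these fits. When normal library 3 was left out, 4 fell and 1 rose. Normal library 3, lowest in Kupffer markers, was the lowest of the normal libraries in both genes, and sorted normal Kupffer cells held Cd74 at 4408 FPKM. The part of Kupffer RNA in the falls was not tested. On the class I list 3 of 22 fell and 0 rose by limma (0 at an unadjusted p under 0.05), with 20 changes below 0. Nlrc5, the transcriptional activator of class I genes, read 17.7, 11.7 and 12.7 against 3.43, 5.77, 5.31, 2.99 and 3.69 FPKM (log2 change of -1.53 ± 0.23, adjusted p = 0.00527). H2-Q6 (-1.84, adjusted p = 0.00489) and H2-Q7 (-1.47, 0.00319) are close copies of one another, and reads may be split between them.

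The letters TTTCNNTTTC, core of the interferon-stimulated response element, stood on either strand in the promoter windows of 25 of 44 interferon response genes with one (56.8%) and 5 of the 8 called ones, against 3.99% of all genes. The stretches shown belong to the 2 called genes with the largest falls that hold the letters upstream of the start, Tgtp2 at chr11:49064243-49064322 on the minus strand and Gbp5 at chr3:142496729-142496808 on the plus strand, with the fixed letters in capitals (GAAA for the other strand).
Tgtp2: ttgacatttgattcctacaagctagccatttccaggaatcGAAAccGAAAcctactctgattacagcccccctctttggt
Gbp5: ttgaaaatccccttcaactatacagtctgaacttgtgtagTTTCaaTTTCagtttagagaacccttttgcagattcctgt

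Chaperones of the endoplasmic reticulum (ER) fold secreted proteins and are induced when unfolded protein accumulates, and part of them rose. Of 29 genes 10 rose and 0 fell by limma (1 at an unadjusted p under 0.05), with 26 changes above 0 and a median of 0.72. Hspa5 (chr2:34627610-34632049), the chaperone BiP, read 216, 220.2 and 236 FPKM in normal and 1140.1, 622, 749, 1034 and 293 FPKM in PH libraries (log2 change of 1.63 ± 0.39, adjusted p = 0.0302). PH library 5 was nearest to the normal libraries here and for Manf, a secreted ER protein (25.0, 32.8 and 27.0 against 137, 117, 86.0, 114 and 38.8 FPKM; log2 change of 1.66 ± 0.36, adjusted p = 0.0203). Hyou1, a chaperone of the same family, read 23.97, 25.8 and 31.2 against 105, 59.3, 100.4, 89.3 and 59.2 FPKM (log2 change of 1.54 ± 0.23, adjusted p = 0.00470) and kept its call in all 8 fits with 1 library left out. Creld2 overlapped between the groups in PH library 5 (log2 change of 1.57 ± 0.40, adjusted p = 0.0414). The list's count was 3 without normal library 1, 4 without normal library 3, 5 without normal library 2 and 6 without PH library 1 or 4. Hepatocytes express these genes too, with Hspa5 at 530.0 FPKM in normal and 712 after PH, and 3 of the tested members lay under 10 FPKM there. Leaving out the library in brackets ended limma's calls of Hspa5 (normal 1, 2 or 3 or PH 1 or 4, adjusted p up to 0.109), Manf (normal 1, 2 or 3, adjusted p up to 0.0882) and Creld2 (normal 1, 2 or 3 or PH 1, 2, 3 or 4, adjusted p up to 0.142).

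The ER stress response element, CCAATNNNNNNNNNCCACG on either strand, stood in the windows of 8 of 24 genes of this list (33.3%), 4 of the 7 called ones, against 0.137% of all genes. It is shown in capitals in the promoters of the 3 called genes with the largest rises that hold it upstream, Hspa5 at chr2:34771994-34772073 on the plus strand, Creld2 at chr15:88819489-88819568 on the plus strand and the lectin chaperone gene Calr at chr8:84847045-84847124 on the minus strand (CGTGG and ATTGG on the other strand).
Hspa5: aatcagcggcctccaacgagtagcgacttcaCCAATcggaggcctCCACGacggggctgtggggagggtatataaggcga
Creld2: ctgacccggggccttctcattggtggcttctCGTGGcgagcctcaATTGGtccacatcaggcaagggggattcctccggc
Calr: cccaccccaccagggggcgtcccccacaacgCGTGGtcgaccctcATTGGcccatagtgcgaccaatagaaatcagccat

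Among glycolytic and hypoxia-responsive genes rises outnumbered falls. Of 29 tested 12 rose and 3 fell (median 0.77). Of the rises, 5 were of genes under 10 FPKM in both hepatocyte groups. Slc16a3, the lactate exporter MCT4, read 1.54, 2.08 and 2.49 FPKM in normal and 21.0, 20.6, 7.89, 29.8 and 15.1 FPKM in PH libraries (log2 change of 2.61 ± 0.35, adjusted p = 0.00294). The pyruvate kinase gene Pkm read 118, 115 and 127 against 313, 272, 189, 321 and 296 FPKM (log2 change of 1.19 ± 0.20, adjusted p = 0.00790). Eno1, enolase, read 20.2, 6.76 and 16.4 against 40.9, 46.2, 28.5, 48.8 and 39.9 FPKM (log2 change of 1.54 ± 0.31, adjusted p = 0.0154). These 3 calls held in all 8 fits with 1 library left out. Hepatocytes held Eno1 at 64.3 FPKM in normal and 64.6 after PH. Egln3, an oxygen sensor, changed by 1.55 ± 0.42 (adjusted p = 0.0499), and the lactate dehydrogenase gene Ldha by 1.196 ± 0.26 (adjusted p = 0.0211). The falls were Adm, Pfkfb3 (-0.65, adjusted p = 0.0185) and Ndrg1 (-1.12, 0.0481). Rises numbered 3 without normal library 1 or 2, 5 without PH library 1 and 7 without PH library 4, and falls 0 without normal library 1, normal library 2 or PH library 1 and 1 without normal library 3. The letters ACGTG of the hypoxia response element stood on either strand in the windows of 20 of 29 list genes (69.0%) and 9 of 14 called ones, against 21.8% of all genes. Called members did not hold these letters more often than the list as a whole. By limma, calls lost on leaving out the library in brackets were those of Egln3 (normal 1, 2 or 3 or PH 1, 2 or 4, adjusted p up to 0.158), Ldha (normal 1, 2 or 3 or PH 1, adjusted p up to 0.0901), Pfkfb3 (normal 1, 2 or 3 or PH 1, adjusted p up to 0.0666) and Ndrg1 (normal 1, 2 or 3 or PH 1, 2 or 4, adjusted p up to 0.143).

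**Figure D4:**
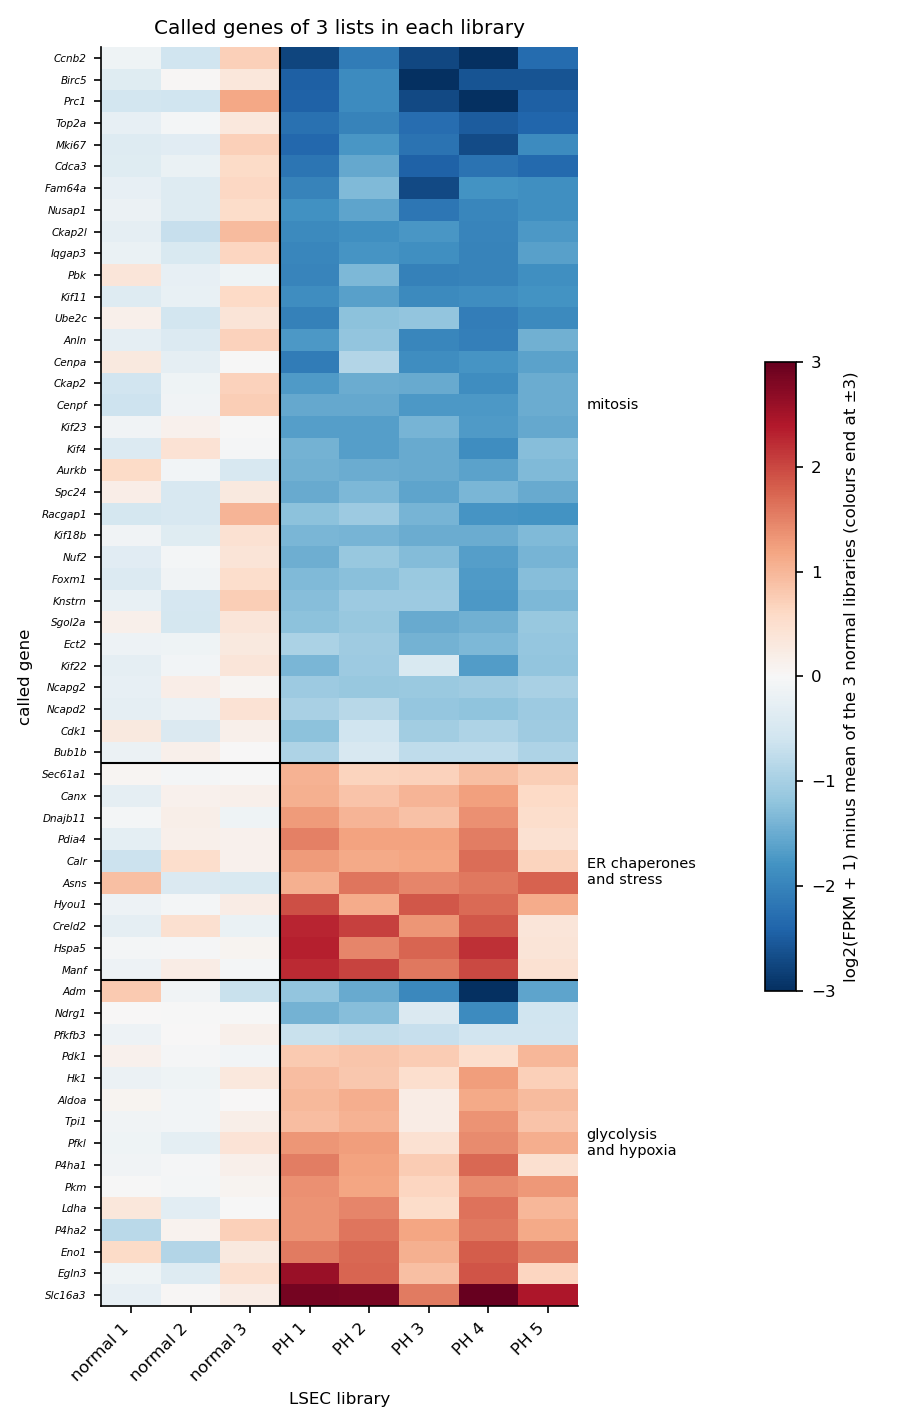
Level of each called gene of 3 lists (mitosis, ER chaperones and stress, glycolysis and hypoxia) (rows) in the 3 normal and 5 PH LSEC libraries (columns), as log2(FPKM + 1) minus the mean of the normal libraries; blue is lower, red higher. The 33 mitosis genes are lower in all PH libraries, while PH library 5 is palest among ER chaperones and PH library 3 among several glycolytic genes.

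Adhesion, chemokine, matrix and coagulation genes held both rises and falls. Among 24 adhesion genes 4 rose and 2 fell (median 0.53). Sele, E-selectin, which captures leukocytes, read 5.20, 1.70 and 9.52 FPKM in normal and 74.99, 24.1, 32.3, 93.2 and 70.3 FPKM in PH libraries (log2 change of 3.25 ± 0.54, adjusted p = 0.0100). Jam2, a junctional adhesion molecule, read 363, 161 and 469 against 1292, 984, 1144, 1733 and 1487 FPKM (log2 change of 2.11 ± 0.33, adjusted p = 0.00635). The integrin chains Itgb2 (log2 change of 2.64 ± 0.49, adjusted p = 0.0132) and Itga5 (0.63, adjusted p = 0.0248) rose, while Itga6 (-1.25, 0.0129) and Itga9 (-0.77, 0.0228) fell. Itgb2 is a leukocyte integrin, at 197 FPKM in normal and 365 FPKM in PH Kupffer cells, and C1qb of the Kupffer list rose with it as given above, while Vsig4 and Folr2 fell. The part of Kupffer RNA in the rise of Itgb2 was not tested. Without normal library 1 the rises numbered 2 and the falls 0, without normal library 2 or PH library 1 there was 1 fall, and without PH library 3 there were 8 rises. Without the library in brackets, limma's call was lost for Itgb2 (normal 1, adjusted p = 0.0527), Itga5 (normal 1, 2 or 3 or PH 1, adjusted p up to 0.0909), Itga6 (normal 1, adjusted p = 0.0584) and Itga9 (normal 1 or 2 or PH 1, adjusted p up to 0.104).

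Of 16 chemokine genes 3 rose and 3 fell (median -0.42). Ccl2, which recruits monocytes, read 13.5, 11.3 and 7.86 against 74.1, 35.9, 32.0, 91.1 and 32.2 FPKM (log2 change of 2.07 ± 0.37, adjusted p = 0.0108). Ccl7, its neighbour in function, read 0, 0.05 and 0 against 3.52, 1.90, 1.31, 7.85 and 1.202 FPKM (log2 change of 1.82 ± 0.44, adjusted p = 0.0313). These and Ackr3 were the 3 rises. Ccl7 passed the filter on low values only through its PH values, so the direction of its change was largely set by the filter. Cxcl9, Cxcl16 (-0.93, adjusted p = 0.0120) and the decoy receptor Ackr1 (-1.61, 0.0373) were the falls, which numbered 1 without normal library 1 or 2 and 5 without normal library 3. On the matrix list 8 of 51 rose and 4 fell (median 0.26). The protease Adamts4 read 14.2, 7.71 and 9.29 against 87.2, 33.4, 57.2, 43.7 and 56.1 FPKM (log2 change of 2.28 ± 0.29, adjusted p = 0.00278). The protease inhibitor Timp1 read 1.58, 0.1001 and 1.37 against 7.28, 14.7, 8.12, 16.4 and 10.0 FPKM (log2 change of 2.64 ± 0.35, adjusted p = 0.00284). The collagen IV chains Col4a1 (1.09, adjusted p = 0.0294) and Col4a2 (1.33, 0.0191), which make basement membrane, rose, as did Ltbp1 (2.66, 0.0107). The laminin chain Lama4 fell from 98.8, 86.4 and 97.0 to 24.6, 33.8, 34.7, 28.6 and 26.4 FPKM (log2 change of -1.65 ± 0.16, adjusted p = 0.00123). Matrix rises numbered 3 without normal library 1 and 4 without normal library 2 or PH library 1. Leaving out the library in brackets ended limma's calls of Ccl7 (normal 1, 2 or 3 or PH 1, adjusted p up to 0.102), Cxcl16 (normal 1 or 2, adjusted p up to 0.0631), Ackr1 (normal 1 or 2 or PH 1, 2, 4 or 5, adjusted p up to 0.146) and Col4a1 (normal 1, 2 or 3 or PH 1, 4 or 5, adjusted p up to 0.0956). The same held for Col4a2 (normal 1, 2 or 3 or PH 1, adjusted p up to 0.0687) and Ltbp1 (normal 1, adjusted p = 0.0576).

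On the coagulation list 7 of 19 rose, 3 without normal library 1 and 4 without PH library 1, and 1 fell (median 0.36). Beside Thbd, the rises included Entpd1, which clears ATP and ADP from blood and so limits platelet activation (21.3, 2.58 and 54.3 against 214, 263, 106, 409 and 242 FPKM; log2 change of 3.79 ± 0.78, adjusted p = 0.0201). Anxa2, a surface co-receptor for plasminogen, read 229.8, 197 and 266 against 769, 959, 475, 1113 and 660.0 FPKM (log2 change of 1.73 ± 0.27, adjusted p = 0.00628). Mcfd2, a carrier of coagulation factors out of the ER, changed by 1.70 ± 0.27 (adjusted p = 0.00635), while hepatocytes held 144 FPKM in normal and 212 after PH. Plau, urokinase, fell from 33.9, 63.2 and 51.6 to 11.2, 13.9, 12.2, 17.8 and 16.1 FPKM (log2 change of -1.70 ± 0.22, adjusted p = 0.00284). Of 25 BMP and TGF-beta genes the receptor Tgfbr2 (log2 change of 1.002 ± 0.19, adjusted p = 0.0121) and the secreted Fstl1 (log2 change of 3.49 ± 0.82, adjusted p = 0.0335) rose and 0 fell by limma (3 at an unadjusted p under 0.05), with a median of -0.06. The called share of that list was 8%, near the 8.46% of all genes tested. The rises numbered 0 without normal library 1 or 2 and 1 without PH library 1, 2, 4 or 5, and 1 gene fell without PH library 2. Of 22 lipid and nuclear receptor genes Gpihbp1, which holds lipoprotein lipase on endothelium, fell from 2625, 2129.5 and 1911 to 541, 818, 663, 597 and 863 FPKM (log2 change of -1.68 ± 0.22, adjusted p = 0.00284, and 0.120 in the single fit of 20 groups). So did Cd36 and Insig1 (-0.65, adjusted p = 0.0449), and Angptl4 was the rise. In the single fit Insig1 missed the threshold (adjusted p = 0.181). Hepatocytes held Insig1 at 137 FPKM in normal and 53.2 after PH. Falls numbered 1 (Gpihbp1) without normal library 1 or 3 or PH library 1 or 5, and rises 0 in those fits and without normal library 2, and 2 without PH library 3. By limma, calls lost on leaving out the library in brackets were those of Entpd1 (normal 1 or PH 1, adjusted p up to 0.0603), Tgfbr2 (normal 1 or 2, adjusted p up to 0.0608), Fstl1 (normal 1 or 2 or PH 1, 2, 4 or 5, adjusted p up to 0.0886) and Insig1 (normal 1, 2 or 3 or PH 1, 3 or 5, adjusted p up to 0.118). That of Tgfbr2 was also lost with quantile scaling (adjusted p = 0.0686).

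Several of the largest rises lay outside these lists. Sprr2b, a small proline-rich protein of squamous epithelium with close paralogs, was listed at 0 in normal libraries 1 and 2 and at 1.46 FPKM in normal library 3, and read 104, 159, 19.7, 140.3 and 44.3 FPKM after PH (log2 change of 5.78 ± 0.67, adjusted p = 0.00247). Tubb3, a tubulin best known in neurons, read 1.14, 0.0602 and 0 against 52.1, 28.4, 19.4, 25.2 and 18.2 FPKM (log2 change of 4.39 ± 0.36, adjusted p = 0.00115). Bcam, the laminin receptor of the Lutheran blood group, read 66.4, 30.1 and 108 against 907, 843, 429, 1148 and 669 FPKM (log2 change of 3.63 ± 0.41, adjusted p = 0.00185). In all 3 the groups did not overlap, which the rule that picked these genes required. The hedgehog ligand Dhh read 0.717, 0.291 and 1.99 against 15.6, 23.1, 8.39, 29.8 and 15.0 FPKM (log2 change of 3.25 ± 0.39, adjusted p = 0.00207). Neurotensin, Nts, varied widely among PH libraries, from 4.54 to 191 FPKM, against 1.63, 0 and 0.351 FPKM in normal libraries (log2 change of 4.44 ± 1.06, adjusted p = 0.0352). The serpin Serpinb9b changed by 3.77 ± 0.79 (adjusted p = 0.0213). Serpina3n and Lrg1, acute phase genes that hepatocytes express, had rises of the same order. Serpina3n read 1.54, 0 and 0.660 against 109, 161, 94.9, 187 and 155 FPKM (log2 change of 6.42 ± 0.31, adjusted p = 1.62e-05), while hepatocytes held 191 FPKM in normal and 3259 after PH. Lrg1 read 38.7, 3.15 and 28.4 against 399, 536, 371, 338 and 632 FPKM (log2 change of 4.71 ± 0.65, adjusted p = 0.00470), and hepatocytes held 313 FPKM in normal and 1339 after PH. The part of hepatocyte RNA in the LSEC values of both genes was not tested. Without the library in brackets, limma's call was lost for Nts (normal 1, 2 or 3 or PH 1 or 2, adjusted p up to 0.0965) and Serpinb9b (normal 1 or 2, adjusted p up to 0.0753). Sprr2b, Tubb3, Dhh, Nts, Serpinb9b and Serpina3n passed the filter on low values only with their PH values. The direction of their changes was thus largely set by the filter.

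Among genes under 10 FPKM in both hepatocyte groups, several of the largest falls outside the lists were in genes of receptors and enzymes. Cntfr, the receptor for ciliary neurotrophic factor, read 52.0, 72.2 and 29.98 FPKM in normal and 3.59, 2.13, 12.6, 1.09 and 6.41 FPKM in PH libraries (log2 change of -3.31 ± 0.57, adjusted p = 0.0110). Art3, an ADP-ribosyltransferase of the cell surface, read 55.8, 74.3 and 40.5 against 5.29, 9.38, 3.81, 3.59 and 6.98 FPKM (log2 change of -3.11 ± 0.30, adjusted p = 0.00123). Plxdc1, a tumour endothelial marker, read 18.9, 18.03 and 8.07 against 0.481, 0.140, 1.63, 0.1301 and 1.16 FPKM (log2 change of -3.23 ± 0.37, adjusted p = 0.00185). Every PH library lay below every normal library in these 3, which the rule that picked them required. The phospholipase receptor Pla2r1 (-2.77, adjusted p = 0.00235), Gpr155 (-3.02, 0.00136), the glycosyltransferase Galnt15 (-2.87, 0.0101) and Wfdc17 (-2.89, 0.00857) were also among the 12 largest falls of genes under 10 FPKM in hepatocytes. Without normal library 1 the adjusted p was 0.0526 for Galnt15 and 0.0519 for Wfdc17, which also missed the threshold with a pseudocount of 0.1 (0.0573). Wfdc17 stood at 2486 FPKM in sorted normal Kupffer cells, and the part of Kupffer RNA in its fall was not tested.

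The response was set against that of the other endothelial sort, titled EC (2 normal and 3 PH libraries), in a fit of the 4 groups. Of 12824 genes 1 differed in its response (0.0078%), with 921 at an unadjusted p under 0.05. This was Serpinb2, a plasminogen activator inhibitor, which read 0.291 FPKM at most in LSEC. In EC it read 0.0401 FPKM at most in normal and 5.70 to 12.9 FPKM in PH libraries (difference -3.35 ± 0.42, adjusted p = 0.0208). Serpinb2 passed the filter on low values only through its PH EC values, so the direction of its difference was largely set by the filter. It was not among the genes tested in LSEC alone. Of the genes next in order of p, 0 passed. Stc2 read 1.014 and 1.82 FPKM in normal EC and 0.352 to 2.57 FPKM in PH EC, with a difference of 4.04 ± 0.67 (adjusted p = 0.0825). Lbp, the binding protein for bacterial lipopolysaccharide, differed by 1.76 (adjusted p = 0.0825), and in LSEC it rose from 68.2, 66.2 and 109 to 288, 303, 263, 328 and 350.4 FPKM (log2 change of 1.94 ± 0.20, adjusted p = 0.00125). Hepatocytes held Lbp at 47.0 FPKM in normal and 79.9 after PH. Hyal1, a hyaluronidase, differed by 1.15 (0.204) and the hyaluronan receptor Cd44 by -2.85 (0.0825). The Wnt genes did not pass either. Wnt9b read 20.5 and 34.5 FPKM in normal EC and 10.0 to 81.6 FPKM after PH (difference 3.91 ± 0.98, adjusted p = 0.354). Rspo3 gave 46.7 and 123, and 11.5 to 118 FPKM (difference 4.13 ± 1.27, adjusted p = 0.477). Apart from Serpinb2, a difference between the LSEC and EC responses was thus not shown for these genes. The count was 9 without normal EC library 2, 12 without PH EC library 2, 3 without normal LSEC library 3, 2 without PH EC library 3 or PH LSEC library 3, and 0 in the other fits that left out 1 library.

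Against hepatic stellate cells (HSC, 2 normal and 3 PH libraries), the vitamin A storing cells beside the sinusoid, 61 of 13123 genes differed in response (0.465%), 45 with the higher response in LSEC. Among the smallest p was that of Jam2 (difference 4.60 ± 0.58, adjusted p = 0.0126), which rose in LSEC and read 18.8 and 29.9 FPKM in normal and 1.804 to 6.27 FPKM in PH HSC. Another was that of Tubb3 (adjusted p = 0.0126), which was listed at 0 in normal HSC and at or under 0.101 FPKM after PH. Osmr, the oncostatin M receptor, fell in LSEC from 64.2, 48.7 and 44.2 to 28.5, 31.6, 33.2, 17.6 and 26.1 FPKM (log2 change of -0.92 ± 0.22, adjusted p = 0.0293) and stood at 23.1 and 34.0 FPKM in normal and 80.3 to 117 FPKM in PH HSC (difference -2.70 ± 0.37, adjusted p = 0.0126). The call of Osmr was lost without normal library 1 or 2 or PH library 1 or 5 (adjusted p up to 0.126). The matrix gene Spon1 stayed at 1.94 FPKM or less in LSEC and read 9.49 and 9.57 FPKM in normal and 107 to 172 FPKM in PH HSC (difference -3.42, adjusted p = 0.0226). Ccdc58 was listed at 0 in normal HSC and read 10.7 to 21.9 FPKM after PH, with 7.09, 8.37 and 3.46 against 5.07, 8.10, 8.76, 9.001 and 7.07 FPKM in LSEC (adjusted p = 0.0126). Fam162b was listed at 0 in all 8 LSEC libraries and in PH HSC, and read 4.53 and 8.33 FPKM in normal HSC (adjusted p = 0.0126). Its higher response in LSEC was thus a fall in HSC alone. Fam162b passed the filter on low values only through its normal HSC values, so the direction of its difference was largely set by the filter. Wnt9b also differed (difference 4.23, adjusted p = 0.0191), at or under 1.12 FPKM in HSC, and so did Stc2 (4.01, 0.0191). The count fell to 1 without normal LSEC library 1, 22 without normal LSEC library 2, 6 without PH LSEC library 1 and 31 without PH LSEC library 4, and reached 365 and 274 without normal HSC library 1 and 2 in turn, 99 without PH HSC library 1 and 110 without PH HSC library 2.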

How the data were processed

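RNA of 8 sorted LSEC libraries was analysed from a table of FPKM, which the authors deposited with 1 column per library and a file name that gives the unit; the submitters' processing notes name CASAVA 1.8.2, Bowtie 1.0.0 and mm9, while the counting tool and annotation release are not given in the sources used here. The table has 36141 transcript rows and 24478 symbols, and 1 row per symbol was kept, that of the highest average over the 55 libraries. Starts in it are counted from 0, going by spans of 9426 of 17613 symbols that match RefSeq with such a start, against 465 with a start counted from 1; they are printed counted from 1.

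PH was compared with normal on log2(FPKM + 1), by limma 3.58.1 (R 4.3.3) with a trend in variance and robust moderation, two-sided, on genes with at least 1 FPKM in at least 3 of the 8 libraries, with Benjamini-Hochberg adjustment over all genes tested (called at an adjusted p under 0.05). Log2 changes are given ± SE, on a scale that understates the change of low genes; FPKM give no read depth, so precision rests on 3 and 5 libraries. Differences of response are interaction terms over 13 libraries, on genes with at least 1 FPKM in at least 2 of them. Under either filter a low gene could pass through the values of 1 group alone. The direction of such a change was then largely set by the filter. Among genes not marked so above, Apcdd1 and Ltbp1 passed through PH values, and Esm1, Cd209b, H2-Aa and Plxdc1 through normal values. The fits were tested on simulated data.

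Members, gene lists, markers and tests were chosen with earlier results of these data known, and lists carry no test of their own. The named genes are, among called genes with a change of at least 1 and no overlap, without predicted genes, pseudogenes and small RNA genes, the 12 largest rises and falls under 10 FPKM in both hepatocyte groups, the 3 largest of each with no such limit, up to 4 called genes per list with the largest changes, 5 markers, and the 3 smallest p per direction for each response difference. Some of these are not reported here. Other genes named are members of a list or marker list, picked with their values known. Alternatives were a pseudocount of 0.1, no filter, a minimum of 5 FPKM, quantile and upper-quartile scaling, the mean over a symbol's rows, hepatocyte-low genes, a single fit of 20 groups, no trend or robust moderation, a replicate block and leaving out each library. Python 3.11.15 and matplotlib 3.10.9 drew the figures.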

Additional observations from a re-analysis of the deposited data

Results flagged for a closer look

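In the 5 PH LSEC libraries 125 values were examined for a library far from the other 4, and 4 were, where chance gives about 1 in 20. Erg read 42.0 FPKM in PH library 3 and 68.9 to 73.2 FPKM in the others, and Axin2 read 4.10 FPKM in PH library 4 and 4.75 to 5.01 FPKM in the others. PH library 2 stood apart for Klf2, with 519 FPKM against 279 to 322 FPKM, and for Gadd45a, with 5.06 FPKM against 2.61 to 3.06 FPKM. The response of LSEC differed from that of EC in 1 gene and from that of HSC in 61 genes, by the interaction test.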

How the results depend on the processing

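The count of 973 genes stayed between 681 and 1165 under the other scalings, filters, pseudocount and fits without a block. No label says that the replicate numbers pair the libraries. Same-numbered deviations had correlations of -0.02, -0.24 and -0.11, too few to exclude a shared animal or day, so pairing is unknown. With a replicate block, which leaves 2 residual degrees of freedom, limma called 3 genes (1528 at an unadjusted p under 0.05), and 0 for either difference of response (452 for EC and 1156 for HSC unadjusted). With 1 library left out the counts ran from 277 to 1267 for LSEC, from 0 to 12 for the difference from EC and from 1 to 365 for the difference from HSC. The difference from EC gave 0 genes with a pseudocount of 0.1 (797 unadjusted) or a minimum of 5 FPKM (601 unadjusted), 8 with no filter, 4 with quantile scaling, 5 with neither trend nor robust moderation and 63 in the single fit of 20 groups. The difference from HSC gave 108 with quantile scaling, 111 with upper-quartile scaling, 93 among hepatocyte-low genes and 1080 in the single fit. Of the named genes called in LSEC 0 changed sign in any alternative, while 2 that were not called did, Ccdc58 without normal library 3 and Spon1 without normal library 2. Of 94 named genes tested, calls were lost most often with the block (87), without normal library 1 (37) and without normal library 2 (23), and 21 were lost with no filter or without PH library 1; the cause was not tested. The single fit ended 15 of these calls, quantile scaling 9 and upper-quartile scaling 4, and the pseudocount of 0.1 ended 5. Such losses are not all given beside the genes above. With 3 normal libraries of unknown depth, a gene that missed the threshold is not shown to be unchanged.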
